A study of Mus musculus with 6 samples.

Results

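The 78 genes described here are named as proteins of the mitochondrial ribosome and carry the symbol prefix *Mrpl* (named for the large subunit, 49 genes) or *Mrps* (named for the small subunit, 29 genes). They were chosen as the symbols with either prefix and a number, without pseudogenes, that had at least 20 UMIs (unique molecular identifiers, 1 per captured RNA molecule) over all called barcodes of the series, and 78 of 78 such symbols among the 32285 annotated genes passed. By this measure the whole series held 17035 genes. The mitochondrial ribosome translates the messenger RNAs encoded in mitochondrial DNA, which specify core subunits of the respiratory chain and of ATP synthase. Its ribosomal RNAs come from mitochondrial DNA, whereas all its proteins are nuclear-encoded, made by cytosolic ribosomes and imported. Part of the proteins descend from the bacterial ribosome, and others were added during mitochondrial evolution. By a fixed list, 43 of the genes here were counted with a bacterial homologue and 35 without. This split is approximate. The 35 include *Mrps36*, known from another complex, and *Mrps18a* and *Mrps18b*, relatives of *Mrps18c*, which is among the 43. In the jejunum, stem cells at the crypt base give rise to dividing progenitors, whose offspring become enterocytes, the absorptive and mitochondria-rich cells of the villus, or secretory cells.

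Single cells came from the jejunal epithelium of male wildtype C57BL/6J mice that were about 30 weeks old at collection. The mice were kept for 16 weeks before surgery on a low-fat diet (LFD) or a high-fat diet (HFD). They then underwent a sham operation or vertical sleeve gastrectomy (VSG, removal of a large part of the stomach). After a few days on a gel diet they went back to their LFD or HFD. They were killed 5 weeks after surgery, after an overnight fast. The groups were LFD sham (3 mice pooled), HFD sham (3 mice pooled) and HFD VSG (2 mice pooled), each with 1 crypt-labelled and 1 villus-labelled 10x 3′ library. With 1 library per group no difference between groups could be tested, so ratios are given with intervals that cover counting error only and not the spread between mice, and a member is counted as higher or lower when its log2 ratio lies beyond 0.5.

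The libraries held 60522766 to 155522445 UMIs in called barcodes, and 24155 cells were kept after filtering. The villus-labelled HFD VSG library stood apart, with a median of 30439 UMIs per kept cell against 9398 to 16637.5 in the other 5, and with the lowest mitochondrial share (median 7.07% against 9.75% to 12.7%). Pairs of libraries shared 1 to 9 cell barcodes. The labels and the cells went against each other, since stem-like cells made up 47, 54 and 155 cells in the crypt-labelled and 283, 132 and 456 cells in the villus-labelled libraries, so both labels are used as names only. Clusters were named by fixed markers, and the stem-like cells held 4267 to 5725 CPM (counts scaled to the same total of UMIs in every class and library) of the 9 stem markers against 26.5 to 53.5 CPM in enterocyte-like cells. A cluster of 2060 cells held all 10 early progenitor markers but was led by genes of mitosis (*Cdca3*, *Ccna2*, *Cdc20*), and it is called cluster 2. Its enterocyte markers stood at 14245 to 36727 CPM, between the 3148 to 10094 of stem-like and the 55550 to 96311 of enterocyte-like cells, its 9 stem markers at 84.5 to 284 CPM, and its 10 cycling markers at a median of 681 CPM against 1093 in stem-like cells. *Gm42418*, *Lars2* and 2 other genes are called genes of damaged droplets here, as a name only, since damage was not tested. They differed between libraries, at 8984 CPM in enterocyte-like cells of the villus-labelled HFD VSG library and 13431 to 55116 CPM in the others. Another 4553 cells were left unnamed, most of them for high levels of these genes.

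The promoters of these genes were searched for sequences bound by known regulators of mitochondrial biogenesis, and 6 of them are shown as examples of the matches. RefSeq windows of 250 bases before to 50 after the transcription start (GRCm38.p6) were at hand for 69 of the 78 members, and not for *Mrpl13*, *Mrpl15*, *Mrpl19*, *Mrpl38*, *Mrpl4*, *Mrpl54*, *Mrps28*, *Mrps34* and *Mrps35*. Both strands were searched. The NRF1 motif GCGCATGCG lay in the windows of 7 members (10.1%, against 3.48% of the 12382 genes with at least 20 UMIs), the ETS motif CCGGAAGT, bound by GABPA, in 12 (17.4% against 7.98%) and the YY1 motif AANATGGCG in 11 (15.9% against 5.07%). At least 1 of the 3 motifs lay in the windows of 28 members (40.6%), against 15.3% of the expressed genes and 8.42% of all 27025 genes of the table. The E-box CACGTG, bound by MYC with MAX, was found in 5 (7.25%, against 11.0% of the expressed genes). By position, the YY1 motif had its median 15 bases after the first base of the transcript (11 matches), the ETS motif 27 bases and the NRF1 motif 86 bases before it. The YY1 motif contains ATG, the sequence of a start codon, and overlap with coding starts was not examined. All matches are of sequence only, and binding was not tested. The bases below run 5′ to 3′ from 150 before to 30 after the start, with motif matches in capitals. *Mrpl52*, the member with the highest level, has an ETS match on the opposite strand that begins 1 base after its first base. *Mrpl51* has 1 on its own strand. *Mrps27*, which differed most between stem-like and enterocyte-like cells, has an ETS match before and a YY1 match after the start. *Mrps18a* has a YY1 match alone. *Mrpl39* has NRF1 matches that overlap on both strands because the motif is nearly a palindrome, and *Mrpl32* has the same overlap and 1 further match nearer the start.

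Mrpl52 (chr14:54426759-54426938, plus strand): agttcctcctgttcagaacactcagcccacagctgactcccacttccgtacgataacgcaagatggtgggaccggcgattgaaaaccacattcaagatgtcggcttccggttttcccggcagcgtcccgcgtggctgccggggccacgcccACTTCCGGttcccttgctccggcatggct
Mrpl51 (chr6:125192050-125192229, plus strand): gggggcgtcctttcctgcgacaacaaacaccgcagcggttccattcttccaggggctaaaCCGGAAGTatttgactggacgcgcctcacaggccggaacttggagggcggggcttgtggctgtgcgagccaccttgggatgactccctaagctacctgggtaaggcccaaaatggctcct
Mrps27 (chr13:99344636-99344815, plus strand): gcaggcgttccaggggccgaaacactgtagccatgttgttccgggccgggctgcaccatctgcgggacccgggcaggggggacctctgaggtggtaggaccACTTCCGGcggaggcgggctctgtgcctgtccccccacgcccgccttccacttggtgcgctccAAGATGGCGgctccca
Mrps18a (chr17:46110854-46111033, plus strand): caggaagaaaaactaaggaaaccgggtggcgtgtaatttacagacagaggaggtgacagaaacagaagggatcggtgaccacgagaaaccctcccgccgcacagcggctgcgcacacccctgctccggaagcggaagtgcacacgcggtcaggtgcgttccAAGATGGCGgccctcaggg
Mrpl39 (chr16:84735215-84735394, minus strand): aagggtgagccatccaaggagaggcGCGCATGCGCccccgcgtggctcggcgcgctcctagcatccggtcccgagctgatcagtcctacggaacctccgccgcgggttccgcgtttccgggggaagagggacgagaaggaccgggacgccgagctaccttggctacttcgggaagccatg
Mrpl32 (chr13:14613008-14613187, minus strand): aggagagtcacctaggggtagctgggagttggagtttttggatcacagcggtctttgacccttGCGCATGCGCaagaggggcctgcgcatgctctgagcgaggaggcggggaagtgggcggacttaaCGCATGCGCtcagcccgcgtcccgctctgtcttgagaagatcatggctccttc

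Over all members together, cycling progenitor-like cells, cluster 2 and stem-like cells held the most RNA of these genes in CPM and Paneth-like cells the least. In each group of 3, values follow the order LFD sham, HFD sham, HFD VSG. The summed level in stem-like cells was 6426, 6139 and 7048 CPM in the crypt-labelled and 6595, 6839 and 8139 in the villus-labelled libraries, and in cycling progenitor-like cells 6986, 7419 and 7623 CPM in the crypt-labelled and 7427, 7485 and 9109.6 in the villus-labelled libraries. Cluster 2 held 6187, 6222 and 7020.0 CPM in the crypt-labelled and 7252, 6998 and 9052 in the villus-labelled libraries. Enterocyte-like cells held 2874, 3404 and 3752 CPM in the crypt-labelled and 3787, 3892 and 6490.4 in the villus-labelled libraries, so that within every library each of these 3 groups of cells was above the enterocytes. Goblet-like cells lay near the enterocytes at 3487, 3707 and 4017 CPM in the crypt-labelled and 4793, 4616 and 5697 in the villus-labelled libraries. Tuft-like cells had 3648 and 5034 CPM in the LFD sham and HFD VSG crypt-labelled libraries and 4820, 4872 and 7025 in the villus-labelled ones, and the crypt-labelled HFD sham library had too few of them (13 cells, under the minimum of 20). Enteroendocrine (EEC)-like cells held 2633, 2242 and 3236 CPM in the crypt-labelled and 3893, 3446 and 5283 in the villus-labelled libraries. Immune-like cells, which are intraepithelial lymphocytes and other blood cells, held 2684, 3238 and 4341 CPM in the crypt-labelled and 3341 and 5163 in the LFD sham and HFD VSG villus-labelled libraries. Paneth-like cells held 962, 879 and 885 CPM in the crypt-labelled and 1075, 949.5 and 1196 in the villus-labelled libraries. In each class the villus-labelled HFD VSG library was highest, and its counting interval did not overlap those of the other libraries.

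**Figure D1:**
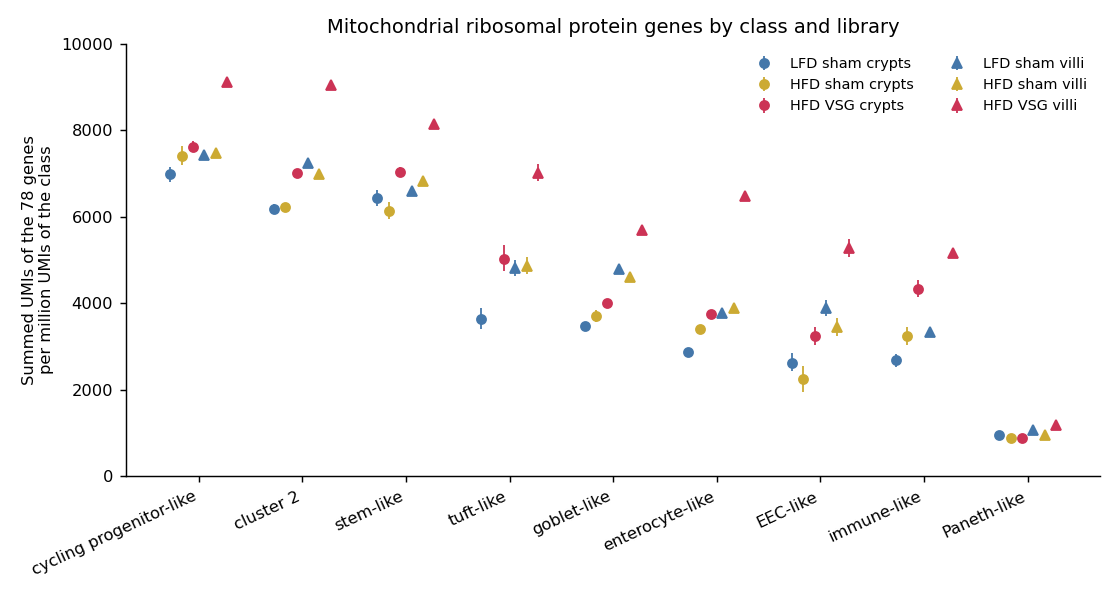
Summed UMIs of the 78 genes in CPM of the class (vertical axis, from 0) by class and library; circles are crypt-labelled and triangles villus-labelled libraries, and bars are exact 95% Poisson intervals, which cover counting error only. Cycling progenitor-like, cluster 2 and stem-like cells lie above enterocyte-like cells in each library, Paneth-like cells lie at 879 to 1196 CPM, and the villus-labelled HFD VSG library is the highest point of each class.

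Single members spanned a wide range of levels. Their totals over the called barcodes ran from 4164 to 93030 UMIs with a median of 24640, together 0.413% of all UMIs, and the 5 highest genes held 16.2% of that. A 3′ library counts 1 UMI per captured RNA whatever its length, so levels compare numbers of molecules, apart from differences in capture. The genes lay on 17 chromosomes, with 11 on chromosome 11 and 8 on chromosome 17, and their transcripts were short, with a median of 1866.5 bases against 2984 for all genes with at least 20 UMIs and a length. *Mrpl52*, a large-subunit protein without a bacterial counterpart, had the highest mean over classes and libraries (192 CPM). It was at 274, 269 and 290.5 CPM in the crypt-labelled and 271, 263 and 375 in the villus-labelled libraries in stem-like cells. In enterocyte-like cells it was at 41.8, 51.9 and 62.3 CPM in the crypt-labelled and 80.3, 74.3 and 215 in the villus-labelled libraries, and in goblet-like cells at 189, 171 and 222 CPM in the crypt-labelled and 255, 260.1 and 417 in the villus-labelled libraries. The goblet-like values exceeded the enterocyte values in all 6 libraries.

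*Mrpl12* (mean 166 CPM), the homologue of the bacterial stalk protein L7/L12 and also known to bind the mitochondrial RNA polymerase, was at 272, 253 and 283 CPM in the crypt-labelled and 264, 267 and 323 in the villus-labelled libraries in stem-like cells. In enterocyte-like cells it was at 105, 118 and 133 CPM in the crypt-labelled and 153, 147 and 258 in the villus-labelled libraries, so the stem-like cells were above the enterocytes in each library. *Mrps24* had 153, 169, 199, 171, 207 and 227 CPM in stem-like and 80.9, 99.7, 118, 109.7, 122 and 209.9 CPM in enterocyte-like cells, in the same order of libraries. *Mrpl51* had 133, 119, 144, 149, 141 and 159 CPM in stem-like and 92.4, 113, 120.1, 125, 133 and 209 CPM in enterocyte-like cells. *Mrpl51* and *Mrpl34* had smaller differences between the classes than *Mrpl12*: *Mrpl34* was at 102, 117, 167, 156, 153 and 195 CPM in stem-like and 122, 149, 161, 156, 166 and 253 CPM in enterocyte-like cells, and thus lower in stem-like cells in 4 of 6 libraries.

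Stem-like cells exceeded enterocyte-like cells of the same library by a median log2 ratio of 0.83 (0.33 to 1.16) over 6 libraries, the range in brackets. Cycling progenitor-like cells did so by 1.00 (0.49 to 1.28) and cluster 2 by 0.89 (0.48 to 1.11). The lowest value of each came from the villus-labelled HFD VSG library, where the enterocytes were highest. These classes were cut from the same counts, so the differences are descriptions and not tests. By gene, 64 of 78 members were above the enterocytes in every library in stem-like cells and 2 below in every library, beside 55.9% above and 22.6% below of all 9787 genes. In cycling progenitor-like cells 71 of 78 were above in every library (57.0% of all genes), and in cluster 2 75 of 78 (53.2%). The median over members was 1.04 in stem-like cells against 0.65 over all genes, and in cluster 2 0.98 against 0.41. Much of the genome thus read higher in CPM in these 3 groups, and scaling by the median ratio of all genes lowered the differences of the summed members to 0.40, 0.58 and 0.53. By symbol, the summed *Mrpl* genes were at 0.79 and the *Mrps* genes, of which *Mrps30* and *Mrps18a* are known from the large subunit and *Mrps36* from another complex, at 0.93 in stem-like cells. Genes counted with and without a bacterial homologue, an approximate split, were at nearly the same values (0.83 and 0.84).

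*Mrps27*, *Mrpl19* and *Mrpl38* differed most between stem-like and enterocyte-like cells. *Mrps27*, a small-subunit protein with pentatricopeptide repeats, was at 36.6, 45.9 and 38.6 CPM in the crypt-labelled and 41.8, 32.4 and 29.6 in the villus-labelled libraries in stem-like cells. In enterocyte-like cells it was at 2.44, 2.84 and 3.36 CPM in the crypt-labelled and 8.05, 4.94 and 11.1 in the villus-labelled libraries, a median log2 ratio of 3.12 (1.42 to 4.02), and the values of both classes did not overlap. *Mrpl19*, with a bacterial homologue in the large subunit, had 69.1, 55.4, 59.1, 60.9, 73.6 and 64.4 CPM against 6.42, 7.16, 7.59, 12.5, 9.87 and 24.6 CPM (log2 ratio 2.92 (1.39 to 3.43)). *Mrpl38*, a large-subunit protein without a bacterial counterpart, had 48.8, 66.5, 56.6, 58.9, 68.2 and 67.2 CPM against 7.36, 7.36, 9.72, 14.3, 11.9 and 32.7 CPM (2.53 (1.04 to 3.18)). Neither gene overlapped between the classes. All 3 were picked for the largest ratios. The share of all genes without overlap was not counted, for these or for the genes named below. *Mrps27* also led elsewhere, with median ratios of 3.37 (1.5 to 4.32) in cycling progenitor-like cells and 2.47 (1.26 to 3.23) in cluster 2. It was followed by *Mrpl19* (2.62 (1.24 to 3.24)) and *Mrps22* (2.60 (1.49 to 3.22)) in the former and by *Mrps28* (2.23 (1.11 to 3.10)) and *Mrpl38* (2.15 (1.06 to 2.36)) in the latter.

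*Mrps36* ran against the others. Its protein, named as a ribosomal subunit, is now known as a part of the 2-oxoglutarate dehydrogenase complex of the citric acid cycle. In enterocyte-like cells it was at 128, 154 and 159.6 CPM in the crypt-labelled and 117, 138 and 166 in the villus-labelled libraries. Stem-like cells had 73.2, 83.9 and 83.3 CPM in the crypt-labelled and 73.7, 62.8 and 99.2 in the villus-labelled libraries, lower in each library (median log2 ratio -0.84 (-1.13 to -0.66)). It was also the lowest member against enterocytes in cycling progenitor-like cells (-0.68 (-0.82 to -0.45)), cluster 2 (-0.33 (-0.36 to -0.25)), goblet-like (-1.27 (-1.49 to -1.15)), tuft-like (-1.38 (-1.94 to -0.87)), immune-like (-1.44 (-1.72 to -1.09)) and Paneth-like cells (-3.41 (-3.63 to -2.52)). *Mrpl27* (-0.32 (-0.45 to -0.22)) and *Mrpl34* (-0.19 (-0.37 to 0.05)), both homologues of bacterial large-subunit proteins, were the next lowest in stem-like cells. *Mrpl27* had 37.9, 53.8, 48.8, 43.6, 53.0 and 57.5 CPM in stem-like and 47.6, 66.7, 65.0, 52.5, 61.6 and 78.3 CPM in enterocyte-like cells, where the ranges overlap although each library had the stem-like value below the enterocyte value. Among the next lowest elsewhere were *Mrps21* in cycling progenitor-like cells (0.07 (-0.15 to 0.19)), and *Mrps15* (0.03 (-0.26 to 0.34)) and *Mrpl14* (0.09 (0.01 to 0.19)) in cluster 2, all near 0. The summed nuclear genes of respiratory complex I were at -0.20 (-0.38 to 0.02) against enterocytes in stem-like cells, at -0.0026 (-0.25 to 0.07) in cycling progenitor-like cells, where 3 of 6 libraries lay above 0, and at 0.31 (0.06 to 0.46) in cluster 2, above 0 in all 6 libraries.

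The other members named for their roles followed the list. *Mrps12*, the homologue of the bacterial decoding protein S12, was at 94.8, 77.6, 87.8, 86.9, 81.9 and 101 CPM in stem-like and 30.0, 33.1, 40.6, 46.1, 38.9 and 78.7 CPM in enterocyte-like cells. *Mrpl58*, also known as ICT1, a peptidyl-tRNA hydrolase of the large subunit, had 70.4, 66.5, 71.0, 66.1, 69.7 and 77.4 CPM against 33.3, 39.1, 44.8, 51.5, 48.8 and 68.0 CPM. In both, each library had the stem-like value above the enterocyte value. Some members carry a small-subunit name but are known to sit in the large subunit, among them *Mrps30* and *Mrps18a*. *Mrps30* had 32.5, 45.9, 36.9, 44.2, 49.6 and 52.6 CPM against 8.26, 9.65, 11.4, 13.2, 12.8 and 26.8 CPM, with no overlap between the classes. *Mrps18a*, a relative of *Mrps18b* and *Mrps18c*, had 70.4, 69.7, 60.3, 54.1, 57.9 and 75.2 CPM against 18.9, 23.0, 24.5, 30.7, 30.8 and 54.2 CPM, and its highest enterocyte value, again in the villus-labelled HFD VSG library, only just passed the lowest stem-like value.

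**Figure D2:**
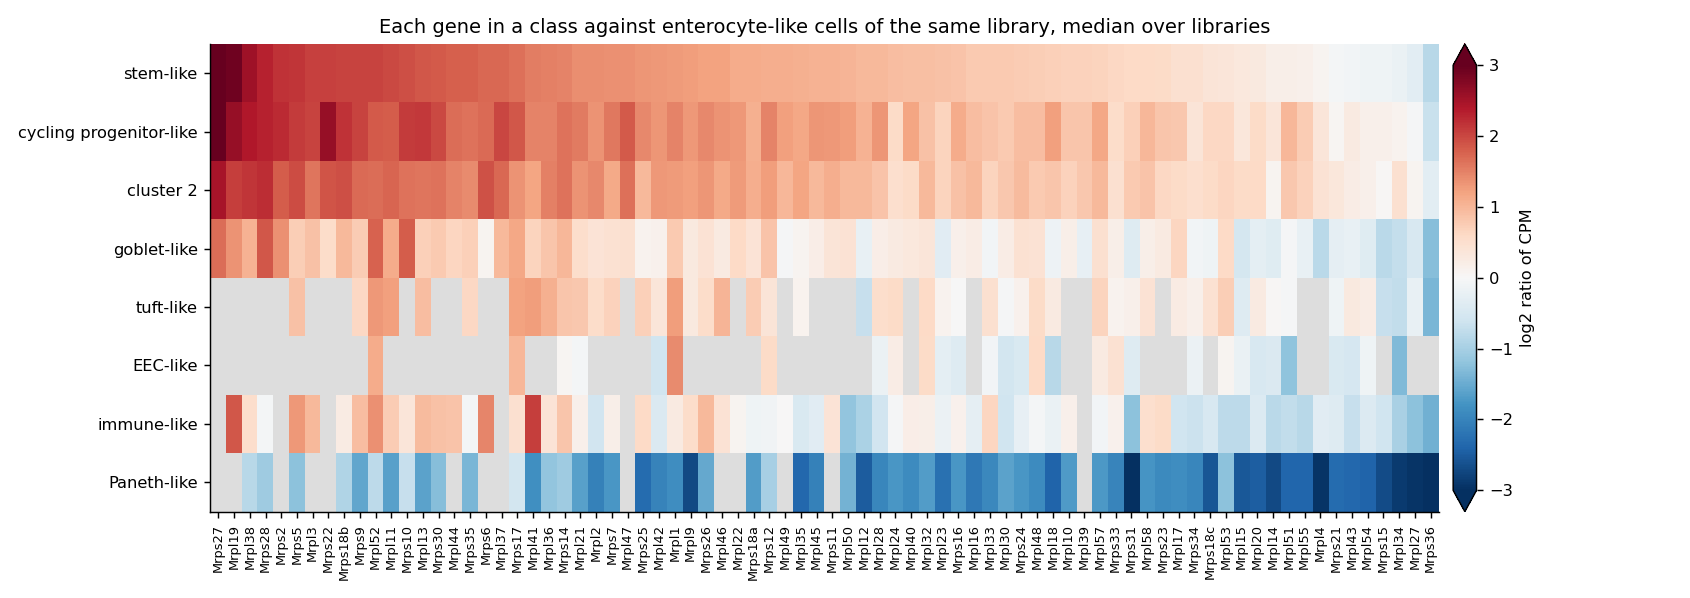
Each of the 78 genes (columns, ordered by the stem-like value) in each class (rows) against enterocyte-like cells of the same library, as the median log2 ratio of CPM over libraries (colour, from -3 in blue to 3 in red; grey, under 100 UMIs in the class). Most genes are red in stem-like cells, cycling progenitor-like cells and cluster 2, and in Paneth-like cells the 64 with at least 100 UMIs are blue and the other 14 grey, with *Mrps27* at the left end and *Mrps36* at the right.

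In the remaining classes single members parted from the sum. In goblet-like cells the summed members were at 0.18 (-0.19 to 0.34) against enterocytes, and 22 of 78 members were above in every library and 9 below, where 52.3% of all genes were above and 22.6% below. *Mrps28* (1.87 (0.39 to 2.17)), *Mrps10* (1.81 (0.99 to 2.18)) and *Mrpl52* (1.77 (0.95 to 2.18)) were highest. *Mrps36*, *Mrps15* (-0.82 (-1.25 to -0.39)) and *Mrpl4* (-0.82 (-1.13 to -0.64)) were lowest. In tuft-like cells the sum was at 0.34 (0.11 to 0.42) and 30 of the 52 members with at least 100 UMIs there were above in every library, beside 58.6% of all genes. *Mrpl52* (1.31 (0.51 to 1.95)), *Mrpl1* (1.26 (0.88 to 1.69)) and *Mrpl41* (1.25 (0.71 to 1.93)) led, while *Mrpl34* (-0.73 (-1.04 to -0.27)) and *Mrps15* (-0.70 (-0.93 to -0.38)) were low beside *Mrps36*. With scaling by the median ratio of all genes the summed members were below the enterocytes in both classes, at -0.12 and -0.18.

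EEC-like cells were at -0.19 (-0.60 to 0.04), with 10 of the 30 members that passed below the enterocytes in every library and 5 above, beside 17.7% of all genes below and 54.7% above. *Mrpl1* (1.43 (1.02 to 1.91)), *Mrpl52* (1.11 (0.27 to 1.38)) and *Mrps17* (1.00 (0.58 to 1.36)) were highest there. *Mrpl34* (-1.33 (-2.24 to -0.95)), *Mrpl51* (-1.21 (-1.89 to -0.71)) and *Mrpl18* (-0.84 (-1.56 to -0.43)) were lowest. Immune-like cells were at -0.10 (-0.33 to 0.21), with 23 of 72 members below in every library and 16 above, beside 19.7% of all genes below and 59.4% above. *Mrpl41* (2.07 (1.49 to 2.28)), *Mrpl19* (1.85 (0.56 to 2.16)) and *Mrps6* (1.47 (0.14 to 1.97)) led in these blood cells, and *Mrpl27* (-1.23 (-1.43 to -1.01)) and *Mrps31* (-1.22 (-2.44 to -0.63)) were low beside *Mrps36*. With scaling by the median ratio of all genes the members were below the enterocytes in every library in both classes, at -0.75 (-1.19 to -0.58) and -0.53 (-0.66 to -0.22). *Mrpl52* and *Mrpl1* were thus among the 3 highest members in both tuft-like and EEC-like cells, and *Mrpl34* among the 3 lowest in both.

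Paneth cells are secretory cells of the crypt base that pack granules with lysozyme and defensins. In Paneth-like cells the summed members were lower than in enterocyte-like cells by a median log2 ratio of -1.99 (-2.44 to -1.58), and 61 of the 64 members with at least 100 UMIs were below in every library, beside 75.5% of all genes. The median over members was -1.87, against -1.42 over all genes. *Mrps17* (-0.56 (-1.45 to -0.13)), *Mrps10* (-0.69 (-1.95 to -0.13)) and *Mrpl52* (-0.78 (-1.68 to 0.09)) were the least low, and *Mrps31* (-3.11 (-3.72 to -2.70)) and *Mrpl4* (-2.93 (-3.78 to -2.62)) came next to *Mrps36* at the low end. The 12 Paneth markers alone took up most of the UMIs of these cells, and all class markers together 67.2% to 73.4% (in enterocyte-like cells 6.21% to 9.88%). With those genes left out of the totals, the members were at 2803 to 4145 CPM in Paneth-like cells and the difference from enterocytes shrank to -0.38 (-0.74 to -0.08). It was -0.39 with scaling by the median ratio of all genes. In stem-like cells leaving out the markers changed the difference from 0.83 to 0.73.

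Other genes of mitochondrial translation were higher in stem-like than in enterocyte-like cells, as the members were. The lists were fixed by function, and values are median log2 ratios of summed levels in stem-like to enterocyte-like cells over 6 libraries. The 6 further ribosomal proteins without the *Mrp* prefix were at 1.17, 11 translation factors at 1.22, 18 ribosome assembly and rRNA-processing genes at 1.59, 11 genes of mitochondrial DNA transcription and replication at 1.77 and 16 mitochondrial aminoacyl-tRNA synthetases at 1.64. The synthetase *Lars2* was left out because it is among the genes of damaged droplets. With it the 17 synthetases were at 0.22 (-0.32 to 0.40), above 0 in 4 of 6 libraries. By gene, 6 of 6, 9 of 11, 17 of 18, 10 of 11 and 15 of 16 of these were above the enterocytes in every library, beside 55.9% of all genes above and 22.6% below. The 82 cytosolic ribosomal protein genes stood higher still, at 2.00, with 81 of 81 that passed above in every library. The messenger RNAs that the mitochondrial ribosome translates did not share this direction. Those of the 13 mitochondrially encoded proteins were at -0.34, and 0 of 13 were above in every library. Cells above 20% mitochondrial UMIs had been removed, which limits this value, and protein was not measured. For 39 nuclear complex I genes the value was -0.20, with 2 of 38 above and 14 below in every library.

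*Dap3*, a GTP-binding protein of the small subunit, was at 108, 87.1, 101, 93.9, 90.3 and 105 CPM in stem-like and 36.6, 37.7, 42.5, 46.1, 47.4 and 65.8 CPM in enterocyte-like cells. *Tsfm*, an elongation factor, had 54.2, 33.2, 50.5, 52.3, 70.2 and 67.2 CPM against 6.20, 6.97, 7.37, 15.0, 12.3 and 32.2 CPM, and *Tfam*, which packages and transcribes mitochondrial DNA, 107, 116, 129, 139.8, 141 and 137 CPM against 20.8, 23.9, 22.3, 30.1, 28.4 and 43.5 CPM. All 3 were above the enterocytes in each library. Of the 8 regulators of mitochondrial biogenesis on the list, 5 were above the enterocytes in every library and 2 below, with a median log2 ratio over the genes of 1.03 and a log2 ratio of their summed levels of -0.09. The transcription factor *Myc* had 65.0, 50.7, 62.8, 80.9, 67.7 and 48.9 CPM in stem-like and 0.22, 0.192, 0.182, 1.87, 0.807 and 3.49 CPM in enterocyte-like cells. The coactivator *Ppargc1a*, a driver of mitochondrial biogenesis, went the other way, with 19.0, 17.4, 22.6, 18.2, 12.3 and 9.42 CPM in stem-like and 163, 122, 128, 139.8, 120.4 and 75.6 CPM in enterocyte-like cells, and so did its partner *Esrra*, with 59.6, 79.2, 58.3, 57.9, 63.3 and 65.8 CPM against 163, 171, 163, 148, 171 and 170.3 CPM. Neither gene overlapped between the classes.

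The diet comparison asks what a chronic high-fat diet does to these genes in sham-operated mice. In crypt-labelled libraries, enterocyte-like cells held more member RNA on HFD than on LFD, with a log2 ratio of 0.24 (95% counting interval 0.23 to 0.26), and 71 of 78 members lay above 0. The size was small: 3 members were beyond 0.5, all higher, where 5.65% of all genes were higher and 6.69% lower, and the median was 0.23 over members and 0.01 over all genes. Subtracting free RNA gave 13 of 78 higher (11.8% of all genes), and over cells with 5000 to 20000 UMIs 13 of 78 (7.71%). *Mrps28* (1.20 (0.93 to 1.48)) and *Mrps18b* (0.57 (0.33 to 0.80)) were highest, both small-subunit proteins. *Mrps9* (-0.09 (-0.26 to 0.07)) and *Mrpl4* (-0.03 (-0.15 to 0.09)) were lowest. In stem-like cells the sum was at -0.07 (-0.13 to -0.0044), with 5 members higher and 2 lower of the 70 that had a mean of 50 UMIs, beside 8.32% of all genes higher and 6.17% lower. *Mrps23* (0.74 (-0.11 to 1.62)) and *Mrps28* (0.72 (0.0032 to 1.46)) were highest and *Mrpl33* (-0.76 (-1.26 to -0.28)) and *Mrpl53* (-0.50 (-1.18 to 0.16)) lowest. The intervals of *Mrps23* and *Mrpl53* include 0. With free RNA subtracted the stem-like sum turned to 0.15, with 11 of 69 members higher (13.5% of all genes). Markers of other classes moved with the stem-like diet comparison: enterocyte markers were at 10094 CPM on HFD against 5469 on LFD, EEC markers at 945 against 9.48, and the genes of damaged droplets at 61870 against 46214, and the part of each was not tested. The fraction of free RNA that the study gave was highest in both HFD sham libraries. Each diet and surgery comparison in this report, with either label, holds 1 of them, and the part of free RNA was not tested.

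In cycling progenitor-like cells of the crypt-labelled libraries the sum was at 0.09 (0.03 to 0.14), with 7 members higher and 2 lower of 67 (7.18% of all genes higher and 6.12% lower), and in cluster 2 at 0.01 (-0.02 to 0.04), with 0 higher and 1 lower of 78 (7.59% and 4.26%). Markers of other classes differed in the cycling cells. EEC markers were at 26.05 CPM on HFD against 592.8 on LFD, and goblet markers at 5347.2 against 3500.5. The part of each was not tested. Goblet-like cells were at 0.09 (0.03 to 0.15), with 3 higher and 1 lower of 48 (7.18% and 6.41%). This depended on the depth of the cells, at 0.37 (-0.02 to 0.75; 22 cells in each library) with 2500 to 5000 UMIs and 1.26 (1.04 to 1.5; 25 cells on HFD and 22 on LFD) with 5000 to 10000 UMIs. Their highest were *Mrpl14* (0.57 (0.13 to 1.02)) and *Mrps35* (0.56 (-0.03 to 1.14)), and their lowest *Mrpl32* (-0.51 (-1.19 to 0.13)) and *Mrpl11* (-0.42 (-1.20 to 0.31)). The Paneth-like sum was at -0.13 (-0.28 to 0.02), over 67 and 30 cells in the LFD and HFD libraries, and no member reached the mean of 50 UMIs. These Paneth-like cells had medians of 3048 UMIs on LFD and 19280 on HFD, and 1 LFD cell held 18.4% of the member UMIs. The part of this gap was not tested. Of these 4 classes cycling progenitor-like and goblet-like cells had intervals above 0, and over cells with at most 10% mitochondrial UMIs the cycling value was 0.01. With free RNA subtracted the Paneth-like value was -1.34. Enteroendocrine-like (EEC-like) cells were at -0.23 (-0.46 to -0.01) in the crypt-labelled and -0.18 (-0.28 to -0.07) in the villus-labelled pair, and immune-like cells at 0.27 (0.15 to 0.40) in the crypt-labelled pair.

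In villus-labelled libraries the diet difference of enterocyte-like cells was 0.04 (0.03 to 0.05), with 0 members higher and 2 lower of 78 beside 4.31% of all genes higher and 9.63% lower. It was -0.04 over cells with at most 10% mitochondrial UMIs, with 7 of 78 lower (12.9% of all genes). Other settings gave higher values, at 0.14 with scaling by the median ratio of all genes, 0.17 with clusters at resolution 0.8 and 0.13 with every cell weighted equally. By depth from 2500 to 80000 UMIs the difference was -0.08, 0.51, 0.02, 0.03 and -0.13, and by cluster (0, 1, 3, 5, 7 and 14) -0.04, 0.17, 0.50, -0.14, 0.30 and -0.09, so neither had one direction. *Mrps15* (0.38 (0.29 to 0.47)) and *Mrpl54* (0.32 (0.24 to 0.40)) were highest, and *Mrps27* (-0.70 (-1.02 to -0.39)) and *Mrps28* (-0.53 (-0.73 to -0.34)) lowest. *Mrps28* thus lay at opposite ends of the list in the 2 pairs of libraries. Its enterocyte levels were 4.83, 11.1 and 7.44 CPM in the crypt-labelled and 19.7, 13.6 and 45.0 in the villus-labelled libraries. In stem-like cells the sum was at 0.05 (0.02 to 0.08), with 0 higher and 1 lower of 78 (3.92% of all genes higher and 4.31% lower). *Mrpl41* (0.47 (0.16 to 0.77)) and *Mrpl1* (0.38 (0.07 to 0.68)) were highest and *Mrpl37* (-0.57 (-1.04 to -0.11)) and *Mrps27* (-0.37 (-0.79 to 0.04)) lowest. Cycling progenitor-like cells had 0 of 78 members beyond 0.5 (5.24% of all genes higher and 3.65% lower), cluster 2 had 1, lower (6.30% and 9.27%), and goblet-like cells had 2, lower (2.60% and 4.16%). The goblet-like extremes were *Mrpl17* (0.31 (0.09 to 0.54)) and *Mrpl37* (0.23 (-0.23 to 0.68)) against *Mrps27* (-0.79 (-1.28 to -0.32)) and *Mrpl9* (-0.63 (-0.92 to -0.35)). *Mrps27* was thus among the 2 lowest members in all 3 of these classes. Markers of other classes differed in this pair too. In stem-like cells the goblet markers were at 2015 CPM on HFD against 638 on LFD. In cycling progenitor-like cells the goblet markers were at 11392 against 3806 CPM and the Paneth markers at 3977 against 2083. The part of each was not tested.

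Paneth-like cells of the villus-labelled libraries had a lower sum on HFD, at -0.18 (-0.24 to -0.12), with 0 members higher and 4 lower of the 40 that passed, beside 22.3% of all genes higher and 6.86% lower. *Mrpl2* (-0.69 (-1.38 to -0.04)) and *Mrpl20* (-0.63 (-1.11 to -0.17)) were lowest and *Mrpl32* (0.21 (-0.36 to 0.76)) and *Mrpl54* (0.21 (-0.20 to 0.61)) highest, the latter with intervals that include 0. The libraries compared here had Paneth-like cells of unlike depth, with a median of 47232 UMIs per cell on LFD and 7558 on HFD and a mitochondrial share of 2.0% and 5.6%, and the part of this gap in the difference was not tested. With free RNA subtracted the sum was at -0.85 and 26 of 33 members were lower (27.0% of all genes), with scaling by the median ratio of all genes 11 of 40 (13.9%) and without the marker genes 11 of 40 (13.8%). Over cells with 5000 to 20000 UMIs the sum was at -0.51.

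The surgery comparison asks how HFD-fed mice differed after VSG from those after a sham operation. In crypt-labelled libraries the members were higher after VSG in most classes: by 0.20 (95% counting interval 0.15 to 0.25) in stem-like cells, 0.17 (0.15 to 0.20) in cluster 2, 0.14 (0.13 to 0.15) in enterocyte-like, 0.12 (0.06 to 0.18) in goblet-like, 0.53 (0.32 to 0.75) in EEC-like and 0.42 (0.31 to 0.54) in immune-like cells. The goblet-like value turned at matched depth, to -0.05 (-0.40 to 0.29; 27 cells after VSG and 22 after sham) with 2500 to 5000 UMIs and -0.17 (-0.31 to -0.02; 43 and 25 cells) with 5000 to 10000 UMIs. Cycling progenitor-like (0.04 (-0.01 to 0.09)) and Paneth-like cells (0.01 (-0.13 to 0.15)) had intervals that include 0. The Paneth-like value rests on 38 cells after VSG and 30 after sham, with medians of 39018.5 and 19280 UMIs per cell. The EEC-like value rests on 34 and 21 cells, with medians of 8441 and 3605 UMIs. The part of these depth gaps was not tested. Beyond 0.5 lay 6 higher and 0 lower of 70 members in stem-like cells (5.63% of all genes higher and 4.20% lower), 1 and 2 of 67 in cycling progenitor-like cells (4.01% and 4.54%), 2 and 0 of 78 in cluster 2 (5.93% and 5.53%), 1 and 1 of 78 in enterocyte-like cells (5.96% and 2.42%) and 5 and 0 of 48 in goblet-like cells (11.0% and 10.1%). The enterocyte median over members was 0.15, against 0.09 over all genes. Over cells with at most 10% mitochondrial UMIs the enterocyte sum was 0.28, with 19 of 73 members higher and none lower (9.92% and 3.94% of all genes). With free RNA subtracted the summed ratios were -0.02 in stem-like cells, -0.03 in goblet-like cells, -0.18 in cycling progenitor-like cells, -0.08 in cluster 2 and -5.88e-06 in enterocyte-like cells. Over all diet and surgery comparisons of classes other than stem-like and enterocyte-like, this subtraction changed the summed ratios by -1.21 to 1.09.

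Markers of other classes and the genes of damaged droplets moved with the surgery comparison of crypt-labelled libraries. The genes of damaged droplets were lower after VSG in every class with cells in both libraries, at 8734 to 29212 CPM against 31271 to 120430 after HFD sham, and in stem-like cells they went from 61870 to 10900 CPM. In stem-like cells the enterocyte markers also went from 10094 to 7496 CPM and the EEC markers from 945 to 17.2, and in goblet-like cells the enterocyte markers from 26822 to 14009 and the EEC markers from 902 to 191. In cluster 2 the enterocyte markers went from 36727 to 26393 CPM. The part of each in the differences was not tested.

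*Mrps33* (0.64 (0.19 to 1.13)) and *Mrpl33* (0.64 (0.23 to 1.08)) were highest in stem-like cells, and *Mrps28* (-0.27 (-0.79 to 0.27)) and *Mrpl3* (-0.26 (-0.78 to 0.30)) lowest. *Mrpl33* was also the lowest on HFD against LFD, and its stem-like levels were 148 CPM after LFD sham, 87.1 after HFD sham and 136 after HFD VSG in the crypt-labelled libraries, and 119, 127 and 167 in the villus-labelled ones. Both comparisons share the HFD sham library, which was the lowest of the crypt-labelled values. In enterocyte-like cells *Mrps2* (0.63 (0.26 to 1.02)) and *Mrpl38* (0.40 (0.16 to 0.65)) were highest and *Mrps28* (-0.58 (-0.80 to -0.36)) and *Mrpl39* (-0.15 (-0.32 to 0.02)) lowest. In goblet-like cells *Mrpl11* (0.69 (-0.02 to 1.44)) and *Mrpl17* (0.62 (0.14 to 1.12)) were highest and *Mrps15* (-0.43 (-0.98 to 0.13)) and *Mrps18c* (-0.30 (-0.83 to 0.25)) lowest.

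In villus-labelled libraries the enterocyte-like cells held more member RNA after VSG, with a log2 ratio of 0.74 (95% counting interval 0.73 to 0.75). All 78 members lay above 0 and 65 above 0.5, where 23.6% of all genes were above 0.5 and 19.5% below -0.5, and the median was 0.78 over members against 0.01 over all genes. The sum was 6490 CPM after VSG, against 3892 after HFD sham, 3787 after LFD sham and 2874 to 3752 in the crypt-labelled libraries, so that 1 library of 6 stood above the rest. *Mrps28*, at 45.0 CPM against 13.6, had the largest ratio (1.72 (1.57 to 1.87)). *Mrps18b* followed, at 52.1 CPM against 16.2 (1.68 (1.55 to 1.82)). *Mrps15* (0.14 (0.08 to 0.21)) and *Mrpl15* (0.19 (0.13 to 0.24)) had the smallest. Some genes that were low in enterocytes and high in stem-like cells came nearer to the stem-like level: *Mrpl52* was at 215 CPM after VSG against 74.3 after HFD sham, with 375 CPM in stem-like cells of the VSG library, and *Mrpl19* at 24.6 against 9.87, with 64.4.

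Several measures moved with this difference. The enterocyte-like cells after VSG were deeper (median 34782 UMIs per cell against 15182.5) and had a lower mitochondrial share (8.6% against 11.6%). The genes of damaged droplets were lower in them (8984 against 36566 CPM). These cells also held more RNA of the 10 early progenitor markers (5458 CPM against 2346 after HFD sham, 2713 after LFD sham and 1115 to 1530 in the crypt-labelled libraries), while the 9 stem markers were at 35.8 against 31.9 CPM and the 10 cycling markers at 89.4 against 82.6. Their enterocyte markers were at 55550 CPM against 80112 and their Paneth markers at 685 against 2724. The part of each in the result was not tested. At matched depth the difference was smaller but of the same direction. Cells with 10000 to 20000 UMIs held 5066 CPM after VSG (61 cells) and 3886 after HFD sham (1311 cells), a log2 ratio of 0.38 (0.34 to 0.42). Cells with 20000 to 40000 UMIs held 6443 CPM (1028 cells) and 4061 (318 cells), a ratio of 0.67 (0.65 to 0.68), and those with 40000 to 80000 UMIs gave 0.59 (0.55 to 0.64). Over cells with 5000 to 20000 UMIs 31 of 78 members were above 0.5 (20.1% of all genes) and 2 below -0.5 (15.4%). All 6 enterocyte-like clusters had the difference in the same direction, at 0.76, 0.44, 0.47, 0.82, 0.63 and 0.76 for clusters 0, 1, 3, 5, 7 and 14. Their levels were set by the same cells, so these are views of 1 library pair.

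**Figure D3:**
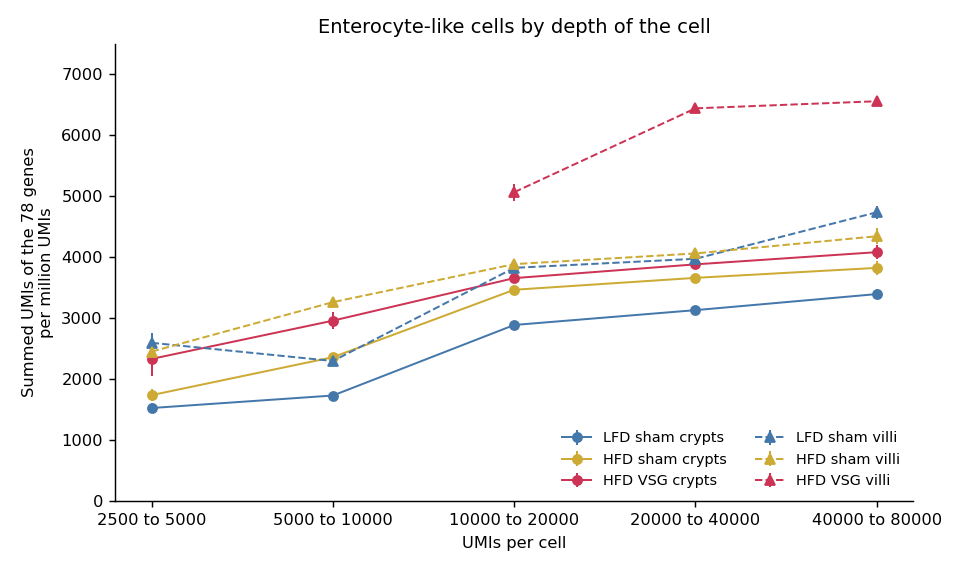
Summed UMIs of the 78 genes in CPM (vertical axis, from 0) in enterocyte-like cells grouped by UMIs per cell (horizontal axis), 1 line per library; solid lines with circles are crypt-labelled, dashed lines with triangles villus-labelled, bars are exact 95% Poisson intervals, and groups under 20 cells are left out. In each library but LFD sham villi the level is higher in each deeper group, and the villus-labelled HFD VSG line lies above the other 5 in each of its 3 depth groups, from 5066 CPM upwards.

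The diet difference in enterocyte-like cells of the crypt-labelled libraries, unlike that of the villus-labelled ones above, kept its direction in every depth group, at 0.19, 0.45, 0.26, 0.23 and 0.17 from 2500 to 80000 UMIs. The surgery difference there was 0.43 and 0.33 in the 2 shallow groups and 0.08, 0.08 and 0.09 in the deeper ones. By cluster the diet difference was 0.27, 0.22, 0.43, 0.07, 0.17 and 0.14, and the surgery difference 0.18, 0.11, 0.52, 0.15, 0.18 and 0.28. Cluster 3, the shallowest (median 7478 UMIs), had the largest value in both.

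The crypt and secretory classes of the villus-labelled libraries had smaller differences after VSG. The sum was at 0.25 (0.23 to 0.28) in stem-like cells, 0.28 (0.26 to 0.31) in cycling progenitor-like cells, 0.37 (0.36 to 0.39) in cluster 2, 0.30 (0.28 to 0.33) in goblet-like, 0.33 (0.26 to 0.40) in Paneth-like, 0.53 (0.46 to 0.60) in tuft-like and 0.62 (0.51 to 0.72) in EEC-like cells. Tuft-like cells numbered 29 after VSG and 65 after sham, with medians of 19887 and 6049 UMIs, and 1 VSG cell held 14.7% of the member UMIs. EEC-like cells numbered 28 and 46, with medians of 16793 and 7242 UMIs. The part of these depth gaps was not tested. Above 0.5 lay 5 and below -0.5 lay 1 of 78 members in stem-like cells (6.49% of all genes higher and 35.8% lower), 10 and 0 of 78 in cycling progenitor-like cells (5.50% and 34.2%), 18 and 0 of 78 in cluster 2 (9.73% and 31.9%), 10 and 2 of 78 in goblet-like cells (5.70% and 28.6%) and 15 and 0 of 25 in tuft-like cells (23.6% and 28.1%). The 25 passed on a mean over 3 libraries, of which HFD VSG held 5253 tuft-like member UMIs, LFD sham 2473 and HFD sham 2219. Some may have passed only through HFD VSG, so the tuft-like count is not read as a result. In Paneth-like cells 10 of 40 members were higher and 0 lower, where 9.19% of all genes were higher and 38.6% lower. That count was 27 of 40 with scaling by the median ratio of all genes (20.5% of all genes), 29 of 33 with free RNA subtracted (26.5%) and 2 of 37 over cells with at most 10% mitochondrial UMIs (4.51%). All genes had a negative median in these classes, at -0.30 in stem-like cells, -0.26 in cycling progenitor-like cells and -0.23 in cluster 2 and goblet-like cells, against 0.22, 0.26, 0.32 and 0.25 over members. Scaling by the median ratio of all genes therefore raised the stem-like sum to 0.62 and the count above 0.5 to 55 of 78 (23.3% of all genes), and the sums of cycling progenitor-like cells, cluster 2 and goblet-like cells to 0.63, 0.63 and 0.57. Other settings lowered the stem-like sum. It was 0.12 with free RNA subtracted, with 2 members higher and 3 lower (6.9% and 42.2% of all genes). With mitochondrially encoded genes left out of the totals it was 0.20, with 2 higher and 2 lower (5.05% and 39.5%). The goblet-like sum was 0.10 over cells with 5000 to 20000 UMIs and 0.06 (0.0064 to 0.11) with 20000 to 40000 UMIs, and the Paneth-like sum ran from 0.08 over cells with at most 10% mitochondrial UMIs to 1.19 with every cell weighted equally.

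*Mrpl30* (0.70 (0.53 to 0.87)) and *Mrps36* (0.66 (0.40 to 0.93)) were highest in stem-like cells and *Mrpl1* (-0.79 (-1.06 to -0.51)) and *Mrps2* (-0.48 (-0.95 to 0.02)) lowest. *Mrpl1*, a large-subunit protein with a bacterial homologue, was at 52.9, 68.7 and 39.8 CPM in stem-like cells of the LFD sham, HFD sham and HFD VSG villus-labelled libraries, so HFD sham was the highest and HFD VSG the lowest. In goblet-like cells *Mrpl52* (0.68 (0.58 to 0.79)) and *Mrpl28* (0.66 (0.44 to 0.88)) were highest and *Mrpl47* (-0.51 (-0.97 to -0.05)) and *Mrpl1* (-0.51 (-0.81 to -0.21)) lowest. *Mrpl1* was thus among the 2 lowest in both classes. In Paneth-like cells *Mrpl2* (1.04 (0.31 to 1.81)) and *Mrpl20* (0.82 (0.28 to 1.36)), the lowest members on HFD against LFD, were the highest, and *Mrps15* (-0.21 (-0.90 to 0.48)) and *Mrpl32* (-0.15 (-0.87 to 0.55)) the lowest, the latter pair with intervals that include 0. The HFD sham library is in both comparisons.

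These classes too differed in the genes of damaged droplets and in markers of other classes. The genes of damaged droplets were at 6317 to 14550 CPM after VSG and 17149 to 58580 after HFD sham over the villus-labelled classes with cells in both libraries, and were lower after VSG in each. In stem-like cells they went from 29951 to 7581 CPM, the goblet markers from 2015 to 355 and the Paneth markers from 3514 to 916. In cycling progenitor-like cells the genes of damaged droplets went from 17149 to 6317 CPM, the goblet markers from 11392 to 1438 and the Paneth markers from 3977 to 754. In cluster 2 the same 3 lists went from 22839 to 7058, 1155 to 281 and 2566 to 671 CPM. The enterocyte markers of cluster 2 also fell, from 22747 CPM after HFD sham to 14245 after VSG. The part of each in these differences was not tested.

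The stem-like difference depended on the depth of the cells. Among stem-like cells with 10000 to 20000 UMIs it was -0.13 (-0.18 to -0.08; 49 cells after VSG and 64 after sham), and among those with 20000 to 40000 UMIs 0.22 (0.18 to 0.27; 344 and 23 cells). Over all stem-like cells with 5000 to 20000 UMIs the sum was at -0.06, with 3 of 74 members higher and 6 lower, beside 7.43% of all genes higher and 33.4% lower. The sign of the stem-like difference thus differed between depth groups of the same libraries.

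**Figure D4:**
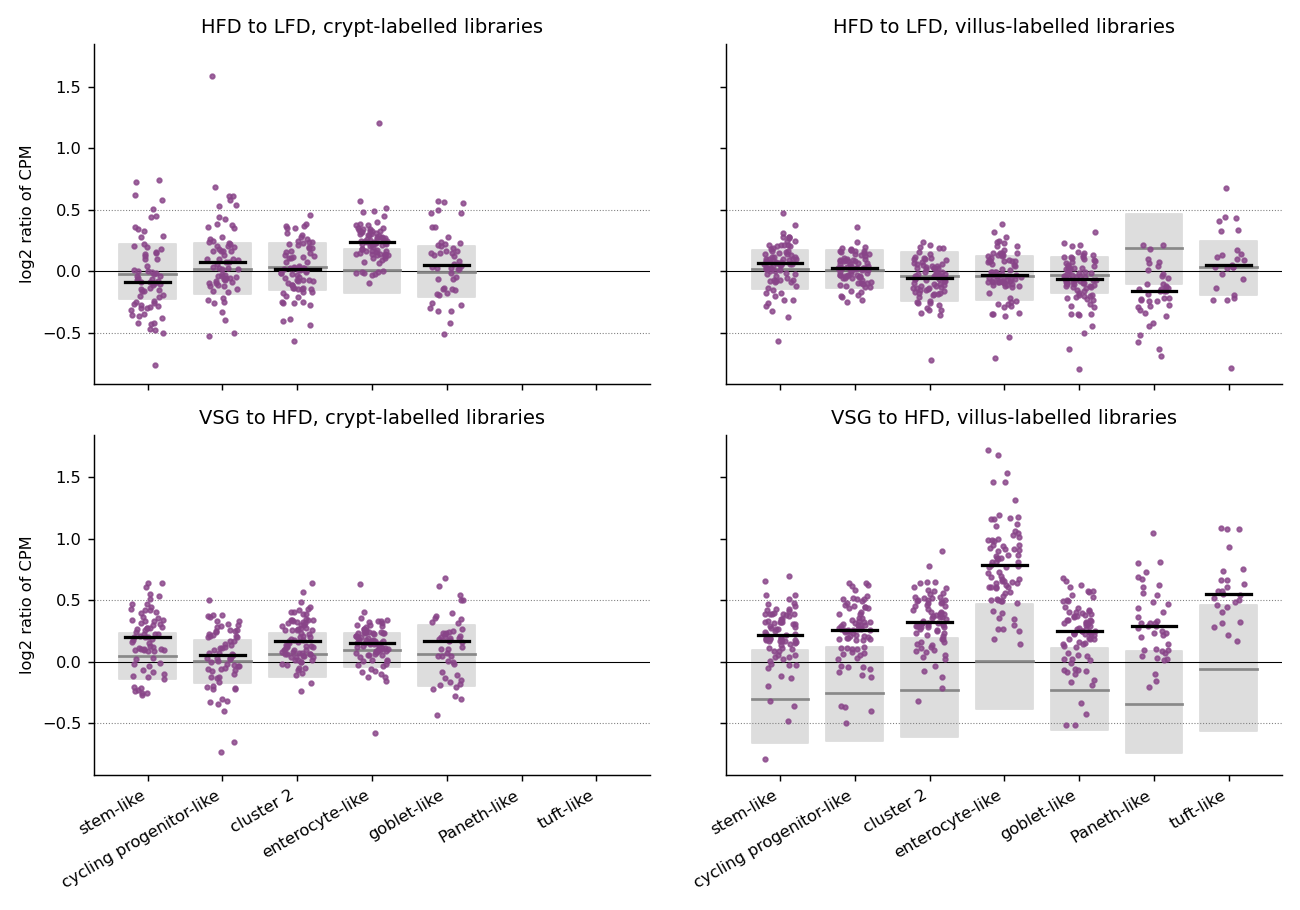
Log2 ratio of CPM (vertical axis) of each gene (points) with a mean of at least 50 UMIs, by class, for the diet (top) and surgery (bottom) comparison in crypt-labelled (left) and villus-labelled libraries (right). Black bars are medians over the genes shown, grey boxes and lines the quartiles and median over all genes, and dotted lines mark 0.5 and -0.5; points sit above the grey boxes most of all in enterocyte-like cells after VSG (median 0.78, all genes 0.01).

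Short transcripts were higher and long ones lower after VSG in the villus-labelled libraries, which bears on genes as short as these. In stem-like cells the median log2 ratio of all genes was 0.33 for transcripts under 1000 bases, 0.19 for 1000 to 2000, -0.24 for 2000 to 4000 and -0.61 for 4000 or more. The members in the same length groups were at 0.28 (17 genes), 0.25 (24), 0.18 (26) and 0.17 (11), so the short members lay near genes of their length and the long members lay above theirs. In enterocyte-like cells all genes were at 0.62, 0.38, 0.06 and -0.25 and the members at 0.73, 0.77, 0.81 and 0.99. There the members lay above genes of like length in each group, by the least in the shortest. In cluster 2 all genes were at 0.41, 0.22, -0.15 and -0.54 against 0.39, 0.36, 0.29 and 0.32 over members, and in goblet-like cells at 0.36, 0.17, -0.16 and -0.50 against 0.39, 0.25, 0.19 and 0.18. Across all genes the correlation of the ratio with the log2 length was -0.53 in stem-like, -0.46 in cluster 2, -0.48 in goblet-like and -0.31 in enterocyte-like cells, and across members -0.30, -0.24, -0.35 and 0.00. Genes are not independent replicates, and the part of length in the member differences was not tested.

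Beside the members, the neighbouring lists differed after VSG as follows in the villus-labelled libraries. In enterocyte-like cells the further ribosomal proteins were at 0.69 (0.65 to 0.73) (4 of 6 above 0.5, beside 23.6% of all genes), assembly genes at 0.68 (0.63 to 0.73) (13 of 18), transcription and replication genes at 0.50 (0.45 to 0.54) (6 of 11), the synthetases at 0.41 (0.36 to 0.46) (6 of 15) and translation factors at 0.36 (0.32 to 0.41) (3 of 11). In stem-like cells the translation factors were at -0.36 (-0.47 to -0.26), with 0 of 11 above 0.5 and 4 below -0.5 (6.49% and 35.8% of all genes, whose median was -0.30), the synthetases at -0.43 (-0.53 to -0.32) and the transcription genes at -0.32 (-0.40 to -0.23), while the members were at 0.25. With scaling by the median ratio of all genes the translation factors were at 0.0014 and the transcription genes at 0.05 in stem-like cells, and over cells with 5000 to 20000 UMIs the members were below 0 there as well. Cytosolic ribosomal protein genes were higher in both classes, at 0.58 (0.58 to 0.59) in stem-like (57 of 81 above 0.5, beside 6.49% of all genes) and 1.38 (1.38 to 1.39) in enterocyte-like cells (80 of 81, beside 23.6%). Nuclear complex I genes were at 0.36 (0.34 to 0.38) and 0.53 (0.53 to 0.54). The messenger RNAs of the mitochondrially encoded proteins were lower, at -0.54 (-0.55 to -0.53) in stem-like and -0.41 (-0.41 to -0.41) in enterocyte-like cells. With free RNA subtracted they were higher, at 0.48 and 0.38.

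By gene, *Dap3* was at 0.22 (0.0016 to 0.45) in stem-like and 0.47 (0.38 to 0.56) in enterocyte-like cells. *Ptcd3*, a small-subunit protein with a long transcript, was at -1.08 (-1.35 to -0.81) and 0.30 (0.11 to 0.48). The elongation factors *Tufm* (-0.03 (-0.26 to 0.20) and 0.45 (0.37 to 0.54)), *Tsfm* (-0.06 (-0.32 to 0.20) and 1.39 (1.23 to 1.55)) and *Gfm1* (-1.03 (-1.36 to -0.69) and 0.21 (0.06 to 0.36)) and the initiation factor *Mtif2* (-0.66 (-0.97 to -0.34) and 0.04 (-0.09 to 0.18)) were each lower or near 0 in stem-like cells. *Polrmt*, the mitochondrial RNA polymerase, was at -0.83 (-1.39 to -0.23) and 0.20 (-0.06 to 0.47), *Tfam* at -0.04 (-0.22 to 0.14) and 0.61 (0.50 to 0.73), and *Lrpprc*, which stabilises mitochondrial messenger RNA, at -1.49 (-1.66 to -1.33) and -0.07 (-0.15 to 0.02). Of the regulators, *Ppargc1a* was at -0.38 (-1.0 to 0.30) in stem-like cells, with an interval that includes 0, and lower in enterocyte-like cells (-0.67 (-0.73 to -0.61)). *Gabpa*, which binds the ETS motif, was lower in both classes (-1.08 (-1.44 to -0.71) and -0.76 (-0.89 to -0.62)). *Nrf1* was at -0.33 (-0.74 to 0.12) and -0.04 (-0.23 to 0.16) and *Esrra* at 0.06 (-0.21 to 0.33) and -0.0021 (-0.05 to 0.05). *Myc* was higher in enterocyte-like cells (2.12 (1.51 to 2.78)), from 0.807 to 3.49 CPM, and at -0.47 (-0.74 to -0.20) in stem-like cells.

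**Figure D5:**
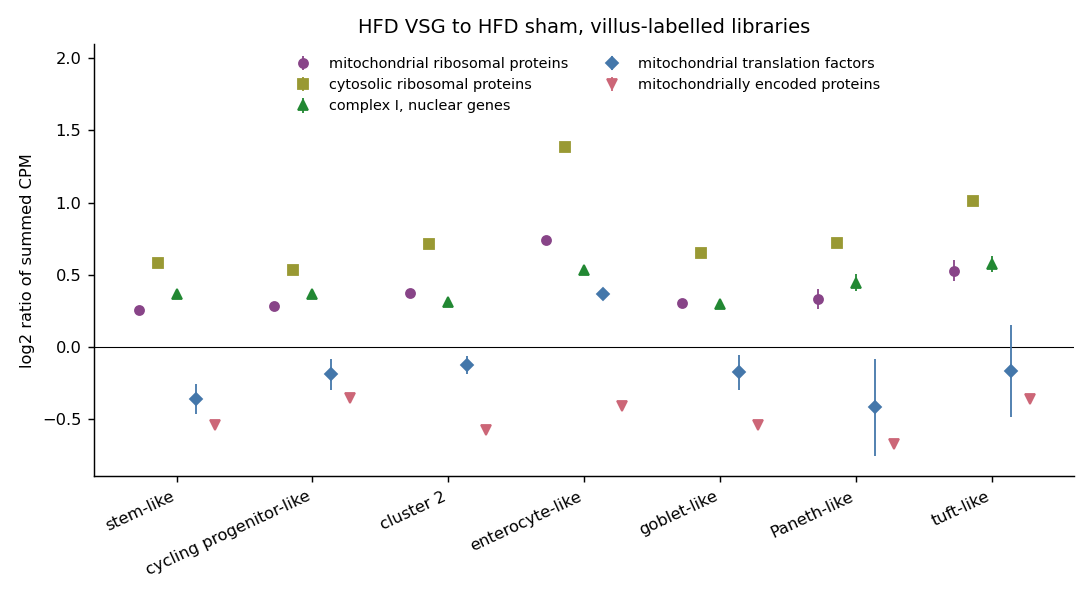
Log2 ratio of summed CPM, HFD VSG to HFD sham, in the villus-labelled libraries (vertical axis) for 5 gene lists by class (horizontal axis), with 95% counting intervals. Mitochondrial ribosomal proteins (circles) lie between 0.25 in stem-like and 0.74 in enterocyte-like cells, cytosolic ribosomal proteins above them in each class, translation factors below 0 in each class except enterocyte-like (near 0 in stem-like cells with scaling by the median ratio of all genes), and mitochondrially encoded proteins below 0 in all 7 (0.48 in stem-like and 0.38 in enterocyte-like cells with free RNA subtracted).

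The members varied together. Over 47 pairs of class and library, the correlation of a member's log2 CPM with the sum of the members had a median of 0.934, against 0.595 over the 8339 genes compared, and 18 of the 100 genes with the highest values were members, each of which is itself part of the sum. *Mrps2* (0.73), *Mrps27* (0.78) and *Mrps36* (0.81) were the lowest members. Outside the list the nearest genes were *Btf3* (0.99), a factor that binds nascent cytosolic peptides, *Park7* (0.99), a protein of the oxidative stress response, the proteasome subunits *Psmb3* (0.99) and *Psma5* (0.98), and *Tomm20* (0.98), an import receptor of the outer mitochondrial membrane. The pairs share libraries, depth and the scaling of each class, so these values are a description.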

How the data were processed

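The authors made 10x 3′ libraries (crypt- and villus-labelled) from 3 groups of pooled mice, ran Cell Ranger 6.0.0 against mm10, and deposited a UMI count per gene and barcode, both for every barcode and for those called as cells. These are raw counts without scaling or subtraction of free RNA. Of 59457 called barcodes, 4794 were removed as doublets (scored against 2 simulated doublets per barcode, with 30 components of 2000 genes and 20 neighbours; the highest 0.8% per 1000 barcodes). In simulated data of 2 types, 82.0% of the 50 highest scores were true doublets. Cells with at least 750 genes and at most 20% mitochondrial UMIs were kept (24155) and integrated with Seurat 5.3.0 and sctransform 0.4.2 (Matrix 1.6.5, R 4.3.3); 2 of the 2000 integration genes are members. The 18 clusters were named by fixed markers, part of which the study chose on these libraries. A cluster took a class when its marker score (mean CPM of the class markers relative to the highest cluster) was at least 0.4 (0.5 for early progenitors), unless *Gm42418* and *Lars2* were high, another class led its top 10 genes, or its depth was low; these thresholds were set after seeing the data. Other steps ran in Python 3.11.15 with scipy 1.17.1, scikit-learn 1.9.0, numpy 2.4.6, matplotlib 3.10.9 and pandas 2.3.3.

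UMIs were summed per class and library (at least 20 cells), divided by all UMIs of that class (CPM) and compared as log2 ratios with exact conditional 95% intervals, which cover counting error only. There are no replicate libraries, so no test was made, and "beyond 0.5" stands for a call among genes whose mean over the 3 libraries of a label reached 50 UMIs. For ratios between classes, genes needed at least 100 UMIs in the class. In simulated counts for VSG to HFD in villus-labelled enterocyte-like cells (9643 genes, 200 changed), 95.1% of the intervals held the true ratio and the 100 doubled genes, the 100 halved genes and 32 unchanged genes were beyond 0.5. Both simulated libraries were Poisson counts drawn from the same class sum, so a share near 95% was built in. No spread between cells or mice and no difference in free RNA was simulated, so these values cover counting error only. The study's cell-level test was not used, since cells of 1 pool are not replicates.

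The members and the gene lists were chosen with earlier results of these data known. The genes named are the 5 highest members by mean CPM, the 3 highest and 3 lowest members per class against enterocyte-like cells, the 2 highest and 2 lowest per comparison in stem-like, enterocyte-like, goblet-like and Paneth-like cells, members and pathway genes fixed for their roles, and the 5 genes outside the list most correlated with the sum. The alternatives were another scaling, totals without mitochondrially encoded or marker genes, subtraction of free RNA (the fraction the study gives for each library, highest in both HFD sham libraries, and the profile of barcodes with at most 100 UMIs), other filters, depth ranges, clustering and thresholds.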

Additional observations from a re-analysis of the deposited data

How the results depend on the processing

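Over the 8 summed comparisons, the ratio of stem-like to enterocyte-like cells and the counts of members, 173 values under alternatives stayed within set bounds and 90 did not. The bounds were the counting interval for a summed comparison and 1.5 times the count for a count. For the ratio of stem-like to enterocyte-like cells they were the standard deviation over libraries to either side. The alternatives over cells with 5000 to 20000 UMIs, with totals without class markers and without 1 library were chosen after seeing the data. The summed HFD to LFD ratio of crypt-labelled stem-like cells, the VSG to HFD ratios of stem-like cells with either label and of crypt-labelled enterocyte-like cells and the HFD to LFD ratio of villus-labelled enterocyte-like cells changed sign under 1 alternative each, and the VSG to HFD ratio of villus-labelled enterocyte-like cells stayed between 0.41 and 0.77 under all. Without 1 library in turn the ratio of stem-like to enterocyte-like cells was 0.81 to 0.85. In the values that follow, diet stands for HFD to LFD, surgery for VSG to HFD, and crypt and villus for the labels of the cells, and the percentage after a count is the share of all genes past the same fold in that direction under that alternative. No paired analysis was possible because each group is 1 library. With median-of-ratios scaling, the summed ratio was 0.40 for stem-like to enterocyte-like cells, 0.62 for surgery in villus stem-like, 0.047 for surgery in crypt enterocyte-like and 0.14 for diet in villus enterocyte-like. Members beyond 0.5 then numbered 4 lower (7.11%) for diet in crypt stem-like, 55 higher (23.3%) and 0 lower (13.7%) for surgery in villus stem-like and 1 lower (7.18%) for diet in villus enterocyte-like. With free RNA subtracted, the summed ratio was 0.15 for diet in crypt stem-like, -0.016 for surgery in crypt stem-like, 0.15 for diet in villus stem-like, 0.12 for surgery in villus stem-like, 0.37 for diet in crypt enterocyte-like, -5.88e-06 for surgery in crypt enterocyte-like, 0.084 for diet in villus enterocyte-like and 0.68 for surgery in villus enterocyte-like. Of the members, the counts beyond 0.5 were 11 higher (13.5%) and 1 lower (7.88%) for diet in crypt stem-like, 2 higher (8.71%) and 4 lower (10.2%) for surgery in crypt stem-like, 2 higher (7.2%) and 0 lower (5.89%) for diet in villus stem-like, 2 higher (6.9%) and 3 lower (42.2%) for surgery in villus stem-like and 13 higher (11.8%) for diet in crypt enterocyte-like. With a maximum of 10% mitochondrial UMIs, the summed ratio was 0.090 for diet in villus stem-like, 0.18 for surgery in villus stem-like, 0.22 for diet in crypt enterocyte-like, 0.28 for surgery in crypt enterocyte-like, -0.039 for diet in villus enterocyte-like and 0.72 for surgery in villus enterocyte-like. Members beyond 0.5 then numbered 3 higher (8.24%) and 4 lower (7.12%) for diet in crypt stem-like, 1 lower (4.75%) for surgery in crypt stem-like, 2 higher (6.76%) for diet in villus stem-like, 2 lower (37.2%) for surgery in villus stem-like, 19 higher (9.92%) and 0 lower (3.94%) for surgery in crypt enterocyte-like and 7 lower (12.9%) for diet in villus enterocyte-like. Over cells with 5000 to 20000 UMIs, the summed ratio was 0.085 for diet in villus stem-like, -0.059 for surgery in villus stem-like, 0.33 for diet in crypt enterocyte-like, 0.12 for surgery in crypt enterocyte-like, 0.10 for diet in villus enterocyte-like and 0.41 for surgery in villus enterocyte-like. Of the members, the counts beyond 0.5 were 1 higher (3.06%) and 0 lower (2.84%) for diet in villus stem-like, 3 higher (7.43%) and 6 lower (33.4%) for surgery in villus stem-like, 13 higher (7.71%) for diet in crypt enterocyte-like, 2 higher (5.84%) and 0 lower (2.31%) for surgery in crypt enterocyte-like and 31 higher (20.1%) and 2 lower (15.4%) for surgery in villus enterocyte-like. With mitochondrially encoded genes left out of the totals, the summed ratio was 0.20 for surgery in villus stem-like, 0.23 for diet in crypt enterocyte-like and 0.69 for surgery in villus enterocyte-like. Members beyond 0.5 then numbered 1 lower (5.9%) for diet in crypt stem-like and 2 higher (5.05%) and 2 lower (39.5%) for surgery in villus stem-like. With clusters at resolution 0.8, the summed ratio was 0.27 for diet in crypt enterocyte-like, 0.17 for diet in villus enterocyte-like and 0.59 for surgery in villus enterocyte-like. Of the members, the counts beyond 0.5 were 3 higher (7.95%) and 4 lower (6.28%) for diet in crypt stem-like, 5 higher (5.73%) for diet in crypt enterocyte-like and 0 lower (6.44%) for diet in villus enterocyte-like. With every cell weighted equally, the summed ratio was 0.28 for diet in crypt enterocyte-like, 0.24 for surgery in crypt enterocyte-like, 0.13 for diet in villus enterocyte-like and 0.77 for surgery in villus enterocyte-like. With a minimum of 1500 genes per cell, the summed ratio was 0.13 for surgery in crypt enterocyte-like. With class marker genes left out of the totals, the summed ratio was 0.054 for diet in villus enterocyte-like and 0.70 for surgery in villus enterocyte-like. Of the members, the counts beyond 0.5 were 1 lower (5.9%) for diet in crypt stem-like. At a threshold of 1, members past the fold numbered 0 higher (1.21%) and 0 lower (0.35%) for diet in crypt stem-like, 0 higher (0.216%) for surgery in crypt stem-like, 0 lower (0.685%) for diet in villus stem-like, 0 higher (0.755%) and 0 lower (8.67%) for surgery in villus stem-like, 1 higher (0.97%) for diet in crypt enterocyte-like, 0 higher (1.05%) and 0 lower (0.586%) for surgery in crypt enterocyte-like, 0 lower (2.89%) for diet in villus enterocyte-like and 17 higher (8.46%) for surgery in villus enterocyte-like. With a mean of at least 200 UMIs, members past the fold numbered 0 higher (3.72%) and 0 lower (1.92%) for diet in crypt stem-like, 0 higher (1.32%) for surgery in crypt stem-like and 0 higher (2.97%) for surgery in crypt enterocyte-like. The cause of each shift was not tested. The depth of stem-like cells (47 to 456 cells per library) and Paneth-like cells (30 to 229) limits single members there, and pooled mice leave the spread between animals unknown.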

Other observations

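Cells left without a class name, most of them with high *Gm42418* and *Lars2*, had the following summed member ratios of HFD VSG to HFD sham in the villus-labelled libraries: 1.58 in cluster 4, 1.30 in cluster 6 and 0.24 in cluster 11. Over all called barcodes of a library, with no cells removed, the members were at 2308, 2642 and 3423 CPM in the crypt-labelled LFD sham, HFD sham and HFD VSG libraries and at 3557, 3440 and 6953 CPM in the villus-labelled ones. The villus-labelled HFD VSG library was highest in this measure too, and it held 456 stem-like cells and 794 cells of cluster 2, the most of the 6 libraries.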
